A study of Arabidopsis thaliana with 20 samples.

Results

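Expression of 10 genes of the gibberellin pathway was examined in shoots of *A. thaliana* grown in Petri dishes with and without active aeration. The genes were taken by their locus identifiers from a table of 33296 genes. They were chosen for their role, with earlier results of these data known. The roles were synthesis for GA20OX1, GA20OX2 and GA3OX1, and inactivation for GA2OX1. GID1A, GID1B and GID1C were taken for perception, and RGA, GAI and RGL3 as DELLA repressors. All 10 passed the limit for testing, 10 normalized counts or more in 4 or more libraries, which left 20160 genes. GA2OX1 passed with 4 libraries, which included all but 1 of the aerated libraries but only 1 of the Parafilm-sealed ones. GA20OX2 passed with 5, all 4 aerated libraries and only 1 of the Parafilm-sealed ones. Both genes thus passed mainly through the treatment in which their mean was higher.

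Both treatments used wild-type Col-0 plants on sterile agar medium with 1% sucrose at 22 °C. In the aerated treatment, dish covers with inlet and outlet filters were mounted 1 day after vernalization and air was passed through the dish. In the Parafilm-sealed treatment, dishes were only opened and closed briefly on that day, and had no air flow. The study describes its aerated dishes as Parafilm-sealed as well. The name Parafilm-sealed thus stands here for dishes without air flow. Each treatment had 4 libraries, each from the pooled shoots of 10 plants of a single dish harvested 15 days after vernalization by the sample records (the text of the study gives other days). A replicate is thus a dish, and the tests set the difference between treatments against the spread between dishes. The study describes 1 flask as able to supply air to 4 dishes, so the aerated dishes may have shared an air supply.

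Gibberellins are growth hormones that promote germination, cell elongation, leaf expansion and flowering. Late steps of their synthesis are carried out by soluble dioxygenases, and related dioxygenases inactivate them. The bioactive hormone binds a GID1 receptor, which then binds DELLA proteins, nuclear repressors of growth, and leads to their degradation. In Arabidopsis, DELLA proteins are also known to raise the expression of GA20OX2, GA3OX1 and GID1B, a feedback that restores gibberellin signalling when the hormone is low.

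The results turn on the synthesis genes GA20OX1, GA20OX2 and GA3OX1, which were all lower in Parafilm-sealed plants, and on the receptor genes GID1A, GID1B and GID1C, whose values differed in direction. The 250 bases before the RefSeq start of 5 of these genes are given so that relatives can be compared, 5′ to 3′ on the strand of the gene (assembly TAIR10.1). Capitals mark TAACAAA, the gibberellin response element known from cereal genes, or its reverse complement TTTGTTA, and TTTGTC, a core letter run of sites bound by IDD zinc finger proteins, or its reverse complement GACAAA.
GA20OX1, chr4:12992586-12992835, minus strand: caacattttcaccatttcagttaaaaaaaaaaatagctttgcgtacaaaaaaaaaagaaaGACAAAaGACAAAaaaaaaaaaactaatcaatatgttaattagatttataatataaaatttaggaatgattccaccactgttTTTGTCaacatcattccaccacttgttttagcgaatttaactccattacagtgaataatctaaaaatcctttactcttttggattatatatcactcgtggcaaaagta
GA20OX2, chr5:21056882-21057131, minus strand: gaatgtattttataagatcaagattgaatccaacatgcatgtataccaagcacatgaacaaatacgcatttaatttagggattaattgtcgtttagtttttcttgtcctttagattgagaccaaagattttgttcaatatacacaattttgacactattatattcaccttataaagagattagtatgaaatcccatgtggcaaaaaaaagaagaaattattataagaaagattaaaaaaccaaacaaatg
GA3OX1, chr1:5346343-5346592, minus strand: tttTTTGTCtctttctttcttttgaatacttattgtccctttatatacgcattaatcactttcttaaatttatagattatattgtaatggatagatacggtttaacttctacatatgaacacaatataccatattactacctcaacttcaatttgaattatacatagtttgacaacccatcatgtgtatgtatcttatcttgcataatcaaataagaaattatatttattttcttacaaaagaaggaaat
GID1A, chr3:1430113-1430362, plus strand: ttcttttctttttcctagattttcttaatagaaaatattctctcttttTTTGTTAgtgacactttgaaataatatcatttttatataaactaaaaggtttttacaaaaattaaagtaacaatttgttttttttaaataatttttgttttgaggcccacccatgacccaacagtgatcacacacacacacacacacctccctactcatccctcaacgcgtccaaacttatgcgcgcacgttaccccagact
GID1B, chr3:23288993-23289242, plus strand: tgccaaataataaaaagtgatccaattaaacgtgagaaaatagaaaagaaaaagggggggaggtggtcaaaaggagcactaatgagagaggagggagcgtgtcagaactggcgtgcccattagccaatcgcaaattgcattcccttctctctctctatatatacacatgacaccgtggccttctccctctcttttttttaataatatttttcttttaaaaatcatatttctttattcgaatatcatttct
No other annotated gene overlapped these windows. TTTGTC was found on either strand 3 times before GA20OX1, at 190, 183 and 108 bases before its start, and 1 time before GA3OX1, at 247 bases. For the receptor gene GID1A, TAACAAA was found on the minus strand of the window, 202 bases before the start. GA20OX2 and GID1B had neither run in their windows. Over the 9 genes whose windows were searched, TTTGTC was present before 5 and TAACAAA before 2, against 24.11% and 16.15% of 27443 RefSeq promoters of the same length, and the G-box CACGTG was present before 0 of the 9, against 6.49%. The runs TTTGTC and TTTGTTA share their first 5 letters, and in these windows no match of one overlapped a match of the other. Matches describe the letters of the window only.

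In Parafilm-sealed plants 5 of the 10 genes were lower, and no gene of the 10 was called higher. The called genes were the synthesis genes GA20OX1, GA20OX2 and GA3OX1 and the receptor genes GID1A and GID1C, at a Benjamini-Hochberg adjusted p under 0.05 in limma. Over all genes tested, 22.4% were called, 12.4% higher and 10% lower in Parafilm-sealed plants. With a fold change of at least 2 added, 2 of the 10 genes were called, both lower, against 7.88% of all genes (5.24% higher and 2.63% lower). The ranges of the treatments did not overlap for 4 of the 10 genes, all of them lower in Parafilm-sealed plants, against 27.3% of all genes (14.3% higher and 13% lower). The median log2 fold change (Parafilm-sealed over aerated, on the log2 scale of the normalized count plus 1) was -0.58 over the 10 genes and -0.00 over all genes tested, and 9 of the 10 had a negative value.

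**Figure D1:**
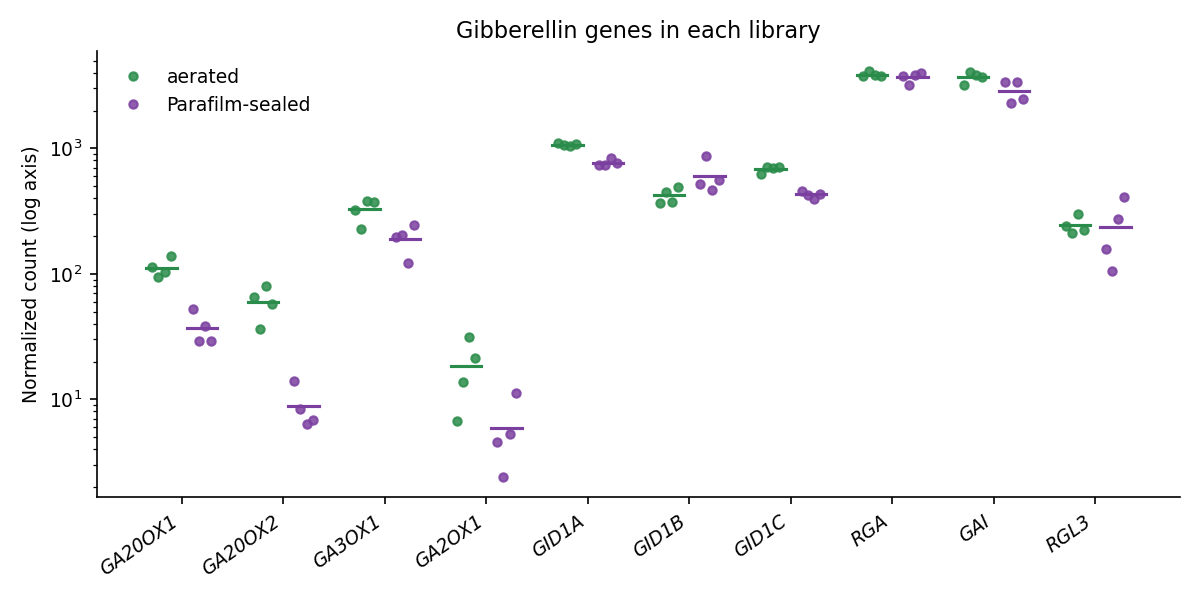
Normalized counts (log axis) of the 10 gibberellin genes in each of 4 aerated (green) and 4 Parafilm-sealed (purple) libraries, with lines at the treatment means. The points of GA20OX1, GA20OX2, GID1A and GID1C do not overlap between treatments, and those of RGA, GAI, RGL3, GA3OX1, GA2OX1 and GID1B do.

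The libraries held between 34330463 and 60255788 reads. The first principal component of all tested genes carried 54% of the variance and separated all 4 aerated from all 4 Parafilm-sealed libraries. Markers of the shoot had a summed level of 3 genes between 889256 and 1417690 normalized counts, most of it from RBCS1A and CAB3. All 3 had a lower mean in Parafilm-sealed plants, and 0 were called. Values of STM, the least abundant of them, did not overlap, with 353.4 to 378.3 in aerated and 247.7 to 340.5 in Parafilm-sealed plants. Of 9 root marker genes, 7 had a lower mean in Parafilm-sealed plants. Only 3 of them (COBL9, LRX1 and PRP3) could be tested, and 0 were called, with log2 fold changes of -0.95, -2.47 and -1.50 and limma adjusted p values of 0.387, 0.0621 and 0.0705. Values of LRX1 and of EXPA18, which was not tested, did not overlap between treatments and were lower in Parafilm-sealed plants. Their summed level was 68.6 to 247.7 normalized counts (median 190.1) in aerated and 44.7 to 73.4 (median 59.4) in Parafilm-sealed plants. No marker of this list was at 0 in all libraries, and 2 were under 10 normalized counts in all. Of 3 flower markers, the summed level was 93.3 to 184.6 in aerated and 54.9 to 112.4 in Parafilm-sealed plants, with 0 called. The summed level of 2 seed markers was 5.2 to 15.9 and 3.8 to 27.6. The part of these tissues in the results on gibberellin genes was not tested. In bulk shoots, fewer cells of a type and less RNA per cell cannot be told apart.

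GA20OX2 (AT5G51810, chr5:21055179-21056881, minus strand) encodes a gibberellin 20-oxidase, an enzyme that makes the direct precursors of bioactive gibberellin. Its normalized counts were 65.5, 36.5, 80.4 and 57.6 in aerated libraries 1, 3, 5 and 7, and 13.9, 8.4, 6.4 and 6.8 in Parafilm-sealed libraries 2, 4, 6 and 8. Every Parafilm-sealed library was below every aerated one. The means were 60 ± 18.3 in aerated and 8.88 ± 3.46 in Parafilm-sealed plants (SD, n = 4), a fitted fold change of 6.19 (log2 fold change -2.63, SE 0.35, limma adjusted p 0.000852). These values rest on 32 to 78 reads per aerated library and 6 to 15 reads per Parafilm-sealed library. GA20OX2 was called lower under all 15 alternatives of processing, with log2 fold changes between -2.85 and -1.87.

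GA20OX1 (AT4G25420, chr4:12990851-12992585, minus strand) encodes the 20-oxidase that is known for its part in stem elongation. It had 113.4, 93.7, 102.8 and 137.6 normalized counts in aerated libraries 1, 3, 5 and 7, and 52, 28.9, 38.3 and 29.4 in Parafilm-sealed libraries 2, 4, 6 and 8. The lowest aerated library was well above the highest Parafilm-sealed library. Means of 112 ± 18.9 and 37.2 ± 10.8 (SD, n = 4) gave a fitted fold change of 3.01 (log2 fold change -1.59, SE 0.23, limma adjusted p 0.00144). The gene was called lower under all 15 alternatives, with log2 fold changes between -1.76 and -1.38.

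The fitted change of GA20OX2 was larger than that of GA20OX1. The log2 ratio of GA20OX2 to GA20OX1 was -0.93 ± 0.45 in aerated and -1.97 ± 0.32 in Parafilm-sealed plants (SD, n = 4), a difference of -1.04 (SE 0.28). The ranges of the ratio did not overlap (exact two-sided permutation p 0.0286, the smallest that 4 against 4 libraries allow). Adjusted over the 7 pairs of relatives compared, the p was 0.0667, above the threshold.

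GA3OX1 (AT1G15550, chr1:5344388-5346342, minus strand) encodes an enzyme that turns the products of the 20-oxidases into the bioactive hormone. Aerated libraries 1, 3, 5 and 7 had 321.7, 226.1, 379.7 and 375.7 normalized counts, and Parafilm-sealed libraries 2, 4, 6 and 8 had 195.1, 202, 121.2 and 244.9. The treatments overlapped, since aerated library 3 was below Parafilm-sealed library 8. Means were 326 ± 71.5 and 191 ± 51.4 (SD, n = 4), with a log2 fold change of -0.78 (SE 0.24, limma adjusted p 0.0390). This call was not stable. Without aerated library 1, 5 or 7 the adjusted p of GA3OX1 in limma was 0.0771, 0.0992 or 0.109, and without Parafilm-sealed library 2, 4 or 6 it was 0.0691, 0.0596 or 0.0767. Its log2 fold change remained negative throughout, between -0.95 and -0.58, and the adjusted p with no filter beyond 1 read was 0.0508.

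Of the 9 listed genes of these late steps of synthesis, the 6 others (GA20OX3, GA20OX4, GA20OX5, GA3OX2, GA3OX3 and GA3OX4) did not reach the limit for testing. The highest of them was GA3OX2, with 5.78 ± 3.71 and 2.10 ± 3.62 normalized counts (SD, n = 4). The late synthesis genes that reached it were GA20OX1, GA20OX2 and GA3OX1. All 3 were called lower in Parafilm-sealed plants, against 10% of all genes tested. The call of GA3OX1 held under only 8 of the 15 alternatives.

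Patterns over the 8 libraries were compared by Pearson's r of the log2 values, as a description of libraries that share the contrast of treatments. The genes most like GA20OX2 were AT1G22490, annotated as a basic helix-loop-helix protein (r = 0.99), HB27, a zinc finger homeodomain protein (r = 0.98), and AT5G06610 (r = 0.98). The pattern of GA20OX1 was most like that of BBX14, annotated as a CONSTANS-like zinc finger protein (r = 0.99), AT5G48370 (r = 0.99) and WAVH1 (r = 0.98). For GA3OX1 the nearest were MYBC1 (r = 0.98), AT3G24110, annotated as a calcium-binding EF-hand protein (r = 0.98), and AT1G49170 (r = 0.97). Such likeness was common, with 546 genes above an r of 0.9 for GA20OX2, 479 for GA20OX1 and 113 for GA3OX1.

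GA2OX1 (AT1G78440, chr1:29511561-29513100, minus strand) encodes a 2-oxidase that inactivates gibberellin, and it had the lowest mean of the 10 genes in both treatments. Its normalized counts were 6.7, 13.7, 31.6 and 21.5 in aerated libraries 1, 3, 5 and 7, and 4.6, 2.4, 5.3 and 11.3 in Parafilm-sealed libraries 2, 4, 6 and 8. Aerated library 1 was below Parafilm-sealed library 8, so the treatments overlapped. With 8 to 25 reads per aerated and 2 to 15 reads per Parafilm-sealed library, the means were 18.4 ± 10.7 and 5.90 ± 3.81 (SD, n = 4). The log2 fold change of -1.45 had a 95% confidence interval of -2.71 to -0.20 and did not pass the test (limma adjusted p 0.0918). It passed without aerated library 1 (adjusted p 0.0460) and without Parafilm-sealed library 8 (adjusted p 0.0498). With a pseudocount of 10 the log2 fold change of GA2OX1 was -0.78.

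Of the 11 listed genes of inactivation, 7 were tested, 2 were called higher and 1 lower, against 12.4% and 10% of all genes tested. GA2OX6, another 2-oxidase gene, had 105.8, 132.5, 94.9 and 80.8 normalized counts in aerated and 565.9, 1019.8, 615.4 and 1546 in Parafilm-sealed plants. Every Parafilm-sealed library was thus several times above every aerated one (log2 fold change 3.07, SE 0.30, limma adjusted p 0.000245). GA2OX2 rose from 191 ± 18.7 to 419 ± 196 normalized counts (SD, n = 4, log2 fold change 1.01, limma adjusted p 0.0372), a call that was lost without any 1 of the aerated libraries or without Parafilm-sealed library 6 or 8, with an adjusted p of up to 0.0930. ELA1, a cytochrome P450 gene of gibberellin inactivation, fell from 52.8 ± 9.77 to 24.5 ± 4.18 (SD, n = 4, log2 fold change -1.07, limma adjusted p 0.0108). Per length, GA2OX1 made up 7.34% ± 4.37 of the summed level of the 7 GA2OX genes in aerated and 0.534% ± 0.213 in Parafilm-sealed plants, while GA2OX6 made up 35.6% ± 5.11 and 72.5% ± 8.27 (SD, n = 4). The sum itself was 4.39 ± 0.329 and 19.1 ± 7.88 RPKM, the reads of a gene scaled by its exon length and by the total of the library.

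**Figure D2:**
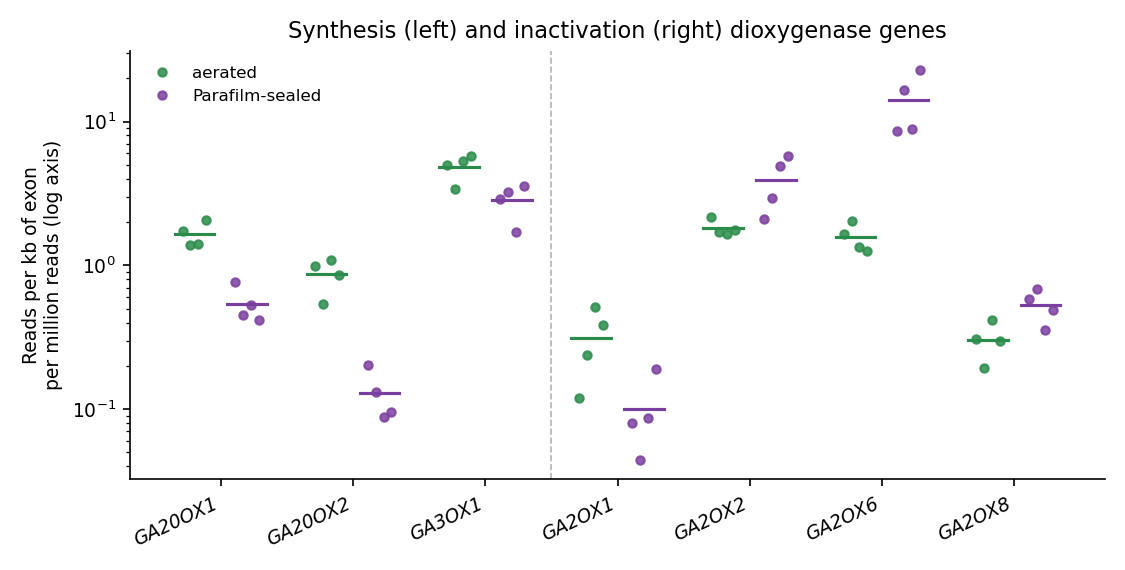
Levels per length (RPKM, log axis) of tested dioxygenase genes of gibberellin synthesis (left of the dashed line) and of inactivation (right) in 4 aerated (green) and 4 Parafilm-sealed (purple) libraries, with lines at the means. The 3 synthesis genes and GA2OX1 have lower means in Parafilm-sealed plants, and GA2OX2, GA2OX6 and GA2OX8 have higher means. GA2OX1 and GA2OX8 did not pass the test, and GA2OX3, which was tested too, is not drawn.

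Of the 3 receptor genes, GID1A and GID1C were called lower and GID1B was not called. Over all genes tested, 10% were called lower. The proteins of all 3 bind bioactive gibberellin. GID1C (AT5G27320, chr5:9628990-9631291, plus strand) had 626.6, 710.4, 693.5 and 709.3 normalized counts in aerated libraries 1, 3, 5 and 7, and 459.9, 426.9, 397.5 and 431.7 in Parafilm-sealed libraries 2, 4, 6 and 8. The 2 ranges were far apart and each was narrow. Means of 685 ± 39.7 and 429 ± 25.6 (SD, n = 4) gave a log2 fold change of -0.67 (SE 0.10, limma adjusted p 0.00124), a fold change of 1.60. GID1C was called lower under all 15 alternatives.

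GID1A (AT3G05120, chr3:1430363-1432844, plus strand) had the highest mean of the receptor genes in both treatments. In Parafilm-sealed library 4, GID1B was above it (869.5 against 738.4 normalized counts). Normalized counts of GID1A were 1100.3, 1063.3, 1039 and 1081.6 in aerated libraries 1, 3, 5 and 7, and 735.9, 738.4, 842.9 and 757.9 in Parafilm-sealed libraries 2, 4, 6 and 8. Aerated libraries differed little from each other and all were above every Parafilm-sealed library. The means were 1071 ± 26.2 and 769 ± 50.4 (SD, n = 4, log2 fold change -0.48, SE 0.09, limma adjusted p 0.00399). All 15 alternatives kept this call, with log2 fold changes between -0.52 and -0.46.

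GID1B (AT3G63010, chr3:23289243-23291486, plus strand) was the only gene of the 10 with a positive log2 fold change. It had 367.1, 451.1, 373.1 and 493.5 normalized counts in aerated libraries 1, 3, 5 and 7, and 519.4, 869.5, 463.4 and 564.3 in Parafilm-sealed libraries 2, 4, 6 and 8. Parafilm-sealed library 4 was the highest of all, and Parafilm-sealed library 6 was within the aerated range. The means were 421 ± 61.5 and 604 ± 182 (SD, n = 4). A log2 fold change of 0.49, with a 95% confidence interval of 0.06 to 0.92, did not pass the test (limma adjusted p 0.0985), and it was 0.30 without Parafilm-sealed library 4.

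Relative to its relatives, GID1B was higher in every Parafilm-sealed library than in any aerated one. The log2 ratio of GID1B to GID1C was -0.71 ± 0.16 in aerated and 0.45 ± 0.39 in Parafilm-sealed plants (SD, n = 4), a difference of 1.16 (SE 0.21). The ratio to GID1A was -1.36 ± 0.21 and -0.39 ± 0.46, a difference of 0.97 (SE 0.25). Neither ratio overlapped between treatments (exact two-sided permutation p 0.0286 for each, 0.0667 adjusted over 7 pairs). The ratio of GID1C to GID1A differed by -0.19 (SE 0.10) with overlapping ranges (exact two-sided permutation p 0.114, adjusted 0.16).

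Per length of exon, the receptor genes summed to 25.9 ± 1.86 RPKM in aerated and 21.1 ± 2.84 in Parafilm-sealed plants (SD, n = 4). GID1B gave 18.1% ± 1.89 of this sum in aerated plants (16.4% to 20.3%) and 31.4% ± 6.58 in Parafilm-sealed plants (25.7% to 40.9%). The share of GID1A was 49.3% ± 2.32 and 43.4% ± 5.27, and that of GID1C was 32.7% ± 1.31 and 25.1% ± 2.47. The share of GID1B therefore did not overlap between treatments. Nor did that of GID1C, with 31.0% to 34.1% in aerated and 22.2% to 28.1% in Parafilm-sealed plants. The shares are parts of the same sum, so they do not vary independently.

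**Figure D3:**
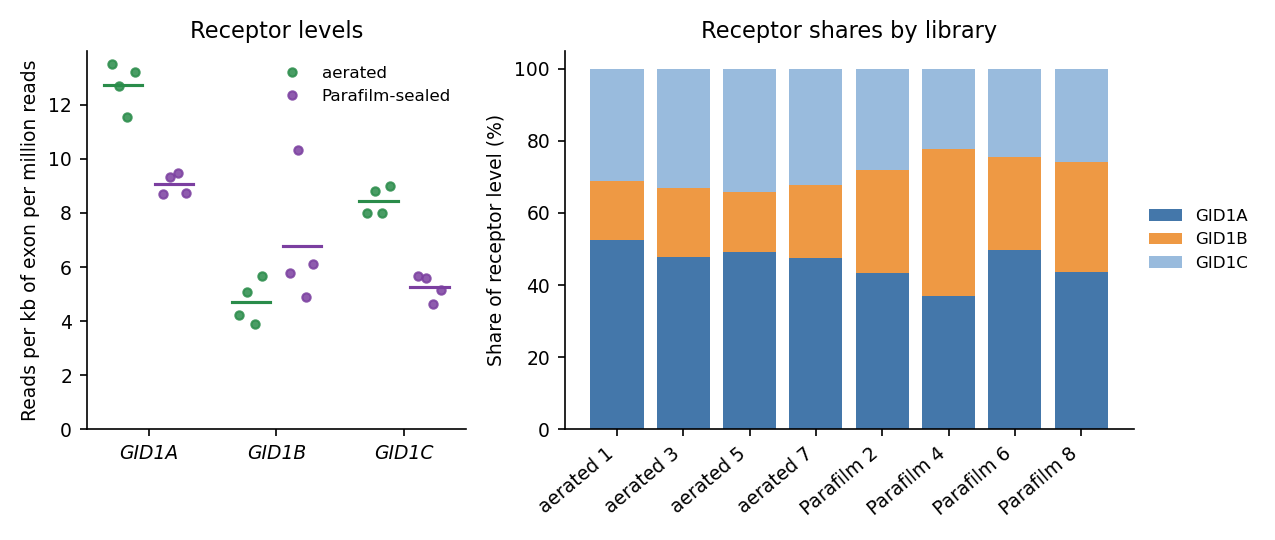
Left, levels per length of the 3 receptor genes (RPKM) in 4 aerated (green) and 4 Parafilm-sealed (purple) libraries, with lines at the means. Right, the share of each gene in the summed receptor level of each library (%), in which GID1B takes 16.4% to 20.3% of the aerated and 25.7% to 40.9% of the Parafilm-sealed libraries.

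None of the 3 DELLA genes was called, against 22.4% of all genes tested. RGA (AT2G01570, chr2:255247-257568, minus strand), a main repressor of stem growth, had 3784.8, 4129.8, 3828.9 and 3748.6 normalized counts in aerated libraries 1, 3, 5 and 7, and 3747.4, 3176.1, 3822.3 and 3986.4 in Parafilm-sealed libraries 2, 4, 6 and 8. The ranges overlapped, with the lowest value in Parafilm-sealed library 4 and the highest in aerated library 3. Its log2 fold change was -0.08, with a 95% confidence interval of -0.29 to 0.13 (limma adjusted p 0.597).

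GAI (AT1G14920, chr1:5148982-5151415, plus strand), which acts with RGA in the repression of growth, had 3175.9, 4039.6, 3807.8 and 3680.7 normalized counts in aerated libraries 1, 3, 5 and 7, and 3363.6, 2316.2, 3365.2 and 2480.3 in Parafilm-sealed libraries 2, 4, 6 and 8. Parafilm-sealed libraries 4 and 8 were below all others, and the remaining Parafilm-sealed libraries were above aerated library 1. The log2 fold change of GAI was -0.37 with a 95% confidence interval of -0.69 to -0.05 (limma adjusted p 0.0943), and it was called under 0 of 15 alternatives.

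RGL3 (AT5G17490, chr5:5763989-5766246, minus strand), a DELLA gene known to respond to jasmonate, had 240.2, 212.4, 298 and 222.7 normalized counts in aerated libraries 1, 3, 5 and 7, and 158, 104.6, 272.1 and 408.4 in Parafilm-sealed libraries 2, 4, 6 and 8. The Parafilm-sealed libraries held both the lowest and the highest values of RGL3. The means were 243 ± 38.2 and 236 ± 135 (SD, n = 4). A log2 fold change of -0.22 with a 95% confidence interval of -1.02 to 0.58 (limma adjusted p 0.701) includes both directions, and it was 0.11 without Parafilm-sealed library 4.

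Ratios between the DELLA genes overlapped between treatments in all 3 pairs. The log2 ratio of GAI to RGA differed by -0.29 (SE 0.14, exact two-sided permutation p 0.0857, adjusted over 7 pairs 0.15), that of RGL3 to RGA by -0.14 (SE 0.39, exact p 0.743), and that of RGL3 to GAI by 0.15 (SE 0.45, exact p 0.857). Per length, the 5 DELLA genes summed to 81.3 ± 4.88 RPKM in aerated and 73.2 ± 5.67 in Parafilm-sealed plants (SD, n = 4). RGA gave 46.7% ± 1.72 and 48.9% ± 2.97 of this sum, GAI gave 42.2% ± 1.85 and 36.3% ± 4.32, and RGL3 gave 3.03% ± 0.509 and 3.14% ± 1.69. The share of RGL1, a further DELLA gene, was 7.14% ± 0.261 and 10.3% ± 1.67, and its log2 fold change of 0.38 did not pass the test (limma adjusted p 0.111).

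RGA and GAI led the order of the levels per length in both treatments, and RGL3 stood below GA3OX1 and all 3 receptor genes. In aerated plants the means were 37.9 for RGA, 34.3 for GAI, 12.7 for GID1A, 8.45 for GID1C, 4.86 for GA3OX1, 4.71 for GID1B, 2.44 for RGL3, 1.65 for GA20OX1, 0.871 for GA20OX2 and 0.314 for GA2OX1 (RPKM). Of neighbours in this order, RGA and GAI overlapped in range, as did GA3OX1 and GID1B. In Parafilm-sealed plants the means were 35.7 for RGA, 26.6 for GAI, 9.06 for GID1A, 6.77 for GID1B, 5.26 for GID1C, 2.84 for GA3OX1, 2.32 for RGL3, 0.542 for GA20OX1, 0.129 for GA20OX2 and 0.100 for GA2OX1. There GID1A overlapped with GID1B, GID1B with GID1C, GA3OX1 with RGL3, and GA20OX2 with GA2OX1. The mean of GID1B was thus below that of GID1C in aerated plants, with ranges apart, and above it in Parafilm-sealed plants, with ranges that overlapped.

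A wider list of 52 further genes of the pathway was chosen for function, with earlier results of these data known. Of these, 36 were tested, and 16 were called, 7 higher and 9 lower, with a median log2 fold change of -0.01 over those tested. The shares over all genes tested were 12.4% higher and 10% lower. The list was thus split in direction, with 18 tested genes on each side of 0. Calls with a fold change of at least 2 were made for 7 genes, 3 higher and 4 lower, against 5.24% and 2.63% of all genes.

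Early synthesis, which makes and oxidizes the hydrocarbon precursor, had 5 genes tested, of which 1 was called. Over all genes tested, 22.4% were called, 12.4% higher and 10% lower. GA2, the ent-kaurene synthase gene, fell from 550 ± 58.6 to 332 ± 66.3 normalized counts (SD, n = 4, log2 fold change -0.74, limma adjusted p 0.00832). Both listed transport genes that were tested were lower, namely NPF3 (log2 fold change -0.76, adjusted p 0.0151), a gibberellin importer gene, and SWEET13 (log2 fold change -1.50, adjusted p 0.0322), a sugar and gibberellin transporter gene. The call of SWEET13 was lost with edgeR and without any 1 of the aerated libraries or Parafilm-sealed library 2 or 4, with a limma adjusted p of up to 0.0811.

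Among 3 genes for partners of DELLA proteins, 1 was called higher and 1 lower, against 12.4% and 10% of all genes tested. GAF1, an IDD zinc finger factor known to activate gibberellin feedback genes together with DELLA proteins, had 1296.9, 1600.1, 1839.3 and 1761.7 normalized counts in aerated and 878.1, 699.9, 758.9 and 742.9 in Parafilm-sealed plants. All Parafilm-sealed libraries were below all aerated ones (log2 fold change -1.07, SE 0.13, limma adjusted p 0.000516). ENY, another IDD gene, was higher (log2 fold change 0.45, adjusted p 0.0178), which was lost without aerated library 7 (adjusted p 0.0612). SEC, whose protein adds sugar to DELLA proteins, was higher (log2 fold change 0.42, limma adjusted p 0.00842). It was the only called gene of 4 for DELLA turnover and modification, against 22.4% of all genes tested.

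Early targets of DELLA proteins and the gibberellin-regulated GASA family were divided in direction. Of 5 DELLA targets, WRKY27 (log2 fold change 1.43, adjusted p 0.00208) and BHLH154 (0.56, adjusted p 0.0121) were called higher, and XERICO (-0.92, adjusted p 0.00826) was called lower in limma. The shares called over all genes tested were 12.4% higher and 10% lower. Of 14 GASA genes, 9 were tested, 1 was called higher and 3 lower, against 12.4% and 10% of all genes tested. GASA4 fell by 0.91 on the log2 scale (adjusted p 0.00347), GASA6 by 1.05 (adjusted p 0.0192) and GASA5 by 0.73 (adjusted p 0.0418), while GASA9 rose by 0.46 (adjusted p 0.0251). Leaving out 1 library ended the call of GASA5 for 7 of the 8 libraries, all but Parafilm-sealed library 8 (adjusted p of up to 0.123). The call of GASA6 was lost without aerated library 5 or Parafilm-sealed library 2 (up to 0.0573), and that of GASA9 without aerated library 1, 3 or 7 or Parafilm-sealed library 2 or 6 (up to 0.0733).

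**Figure D4:**
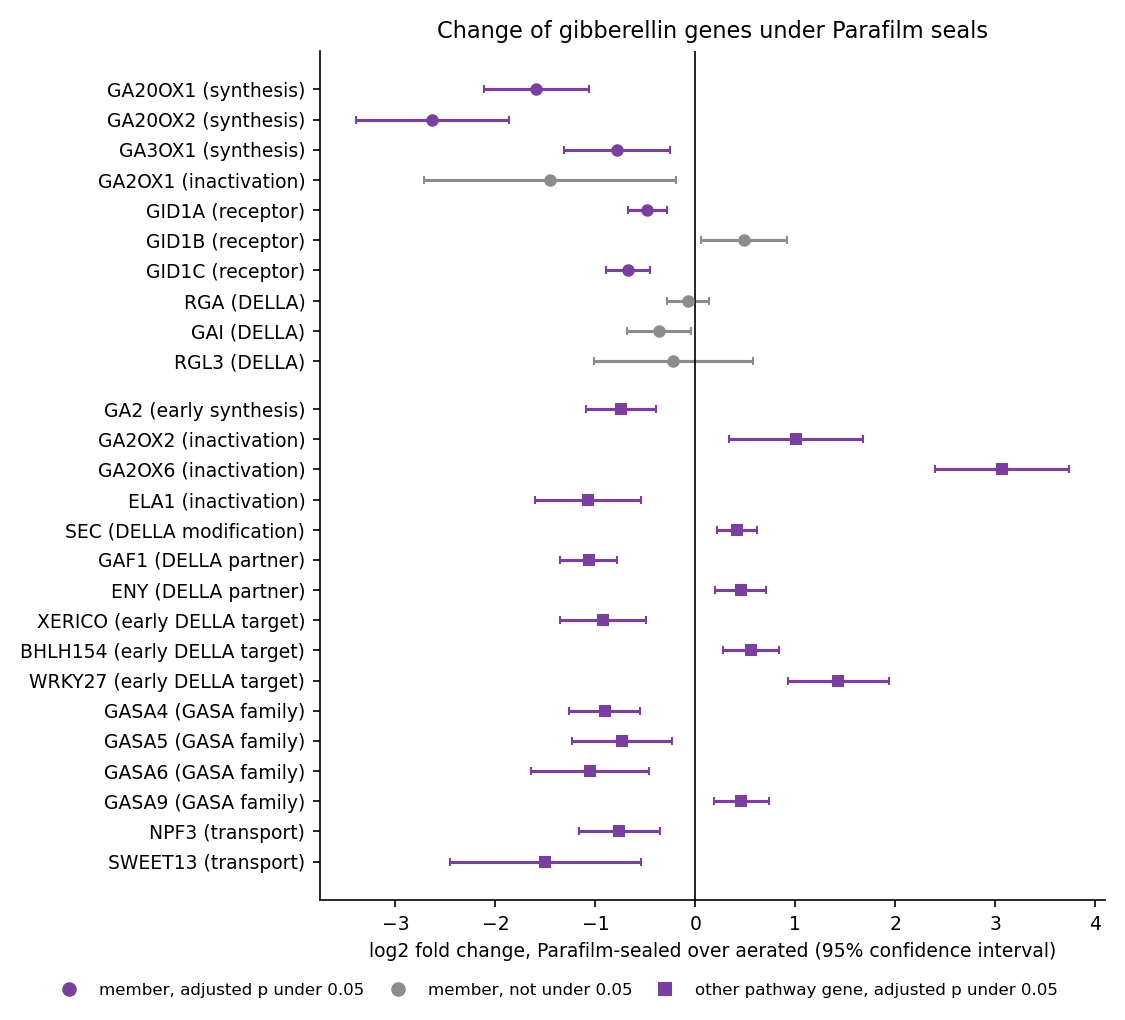
Log2 fold changes (Parafilm-sealed over aerated) with 95% confidence intervals for the 10 genes (circles, purple where the limma adjusted p was under 0.05, grey where not) and for the 16 called genes of the wider list (squares). The 5 purple circles lie left of 0, from -2.63 for GA20OX2 to -0.48 for GID1A, and the squares lie on both sides, 7 to the right and 9 to the left.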

How the data were processed

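Shoots of the first set (4 aerated and 4 Parafilm-sealed dishes) were sequenced from unstranded mRNA libraries with single-end reads. By the authors, reads were aligned to TAIR10 (HISAT2 2.0.4) and assigned to Araport11 genes (featureCounts 1.5.2), and counts were scaled by DESeq2 size factors. The deposited signal is this normalized count, rounded to 1 decimal. The deposited log2 fold changes and adjusted p-values hold the authors' own comparisons of the treatments and were not used. The second set (4 Micropore-sealed, 4 non-aerated and 4 aerated dishes) was not analysed here, since its table as used here holds only such comparisons. The members and lists were chosen with earlier results of these data known.

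Whole reads were recovered from the steps between low values. Between 99.920% and 100% of values above 0 were within 0.06 normalized counts of a whole number of reads. This gave 34330463 to 60255788 reads per library. Counting error is largest for genes with few reads. Treatments were compared in R 4.3.3 by limma 3.58.1 with a mean trend, two-sided, after adding 1 to each normalized count and taking log2. Genes needed 10 normalized counts or more in 4 libraries, or in 3 when a library was left out. A call is a Benjamini-Hochberg adjusted p under 0.05 over all genes tested. Alternatives were TMM factors, library totals, pseudocounts of 0.5 and 10, no filter beyond 1 read, leaving out each library, and on the recovered reads, the quasi-likelihood test of edgeR 4.0.16 and the Wald test of DESeq2 1.42.0, which called 4618 and 5669 genes against 4508 in limma. The fit was tested on simulated data.

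Levels between genes were compared as RPKM, computed from the recovered reads, the exon length and the library total. Ratios were compared for all 7 pairs of members of the same family (GA20OX, GID1, DELLA) by exact permutation in scipy 1.17.1; these pairs and the promoter motifs were added after the values were known. All 10 members are named. Of the wider list, up to 4 called genes with the largest change in each role are named, or the most abundant gene where none was called. GA20OX3, GA20OX4, GA20OX5, GA3OX3, GA3OX4, GA2OX3 and GA2OX8 were named after their values were seen. Likeness is given for the 3 called members with the largest change. Of 33296 identifiers, 33011 (99.1%) matched the TAIR10.1 RefSeq annotation, the source of coordinates, exon lengths and sequences. The promoter window of 1 member is not reported here.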

Additional observations from a re-analysis of the deposited data

How the results depend on the processing

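No gene of the 10 was called higher under any alternative, and GA20OX1, GA20OX2, GID1A and GID1C were called lower under all 15. The count of the 10 called lower was 5 in the main test, 4 with no filter beyond 1 read, and between 4 and 6 when 1 library was left out: 4 without aerated library 5 or 7 or Parafilm-sealed library 2, 4 or 6, and 6 without Parafilm-sealed library 8. The count with a fold change of at least 2 was 2 or 3. Leaving out 1 library gave between 4 and 7 called higher in the wider list (7 in the main test, 4 without aerated library 7) and a log2 fold change of RGL3 between -0.54 and 0.11, which was positive without Parafilm-sealed library 4. Over the 10 genes, the 16 called genes of the wider list and RGL1, with 15 alternatives each, 366 of 405 values kept their direction and their side of the threshold, 36 lost the call, 2 gained it and 1 reversed. The cause was not tested. No paired analysis was possible because the columns carry library numbers and not the replicate numbers of the labels. Other scalings moved the median of all genes by less than 0.1 on the log2 scale. Depth limits GA2OX1 (2 to 25 reads per library) and GA20OX2 in Parafilm-sealed plants (6 to 15 reads).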
